A study of Mus musculus with 4 samples.

Results

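Non-classical monocytes, the patrolling subset that crawls along the vessel wall, were followed in the mouse liver before and 12 h after colon cancer cells were injected into the spleen. A cell was taken as a member when it held at least 1 UMI of Lyz2 or Csf1r and at least 2 UMIs in sum of Ace, Ear2 and Treml4, 3 transcripts typical of this subset. It also had to hold 0 UMIs of Arg1, Cd209a, Cd79a and the Cd3 genes and under 3 UMIs of the C1q genes. These limits were aimed at macrophages, dendritic cells, B cells and T cells. Some members still held at least 2 dendritic-cell markers, as given below. A UMI, or unique molecular identifier, marks 1 captured transcript. In all, 231 of 20039 kept cells met the rule.

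The series profiled single CD45+ liver leukocytes of IL-22sgBFP mice, a genotype in which a blue fluorescent protein reports IL-22 expression. Cells were sorted into an IL-22-BFP-negative and an IL-22-BFP-positive fraction, called IL-22-negative and IL-22-positive here, from mice with no injection (0 h) and from mice 12 h after an intrasplenic injection of MC38 cells, a mouse colon carcinoma line. Its purpose was to see which liver leukocytes express IL-22 around the arrival of cancer cells. Each of the 4 groups was 1 library, all groups carried the reporter, the number of mice per library was not given, and no library followed an injection without cancer cells. With 1 library per group no difference could be tested against replicate spread, and every ratio below compares 2 libraries. Intervals are exact 95% Poisson or binomial intervals that cover counting error only.

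Monocytes leave the bone marrow as Ly6C-high classical cells, which enter inflamed tissue through CCR2. Part of them convert in the blood to Ly6C-low non-classical cells, which depend on the nuclear receptor NR4A1, carry CX3CR1 and the integrin LFA-1 and patrol the endothelium. In lung vessels they are known to take up tumour material.

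The members carried the subset's other genes as well as those of the rule. Levels are given as CPM, which scales a gene's UMIs to the total UMIs of the summed members, in the order IL-22-negative 0 h, IL-22-negative 12 h, IL-22-positive 0 h and IL-22-positive 12 h. The rule genes, given as a description, stood at 407, 137, 562 and 233 CPM for Ace (the angiotensin-converting enzyme), at 548, 459, 576 and 484 CPM for Ear2 (an RNase of the eosinophil-associated family) and at 62.6, 173, 173 and 158 CPM for Treml4 (a receptor of the TREM family). Spn, which encodes CD43 and is not in the rule, stood at 250, 23.9, 221 and 119 CPM, from 16, 4, 50 and 54 UMIs. In classical monocytes of the same libraries, taken as cells with at least 2 UMIs of Ly6c2 and Ccr2 and none of Ace, Ear2 or Treml4, Spn stood at 85.0, 36.0, 55.3 and 24.0 CPM. This comparison class was itself mixed in the IL-22-negative libraries. Its plasmacytoid dendritic cell list stood at 4398, 1705, 438 and 524 CPM and its NK-cell list at 2344, 1044, 13.8 and 7.11 CPM, and at least 2 markers were found in 38.0%, 23%, 27.9% and 13.2% of its cells for the first list and in 25%, 11.2%, 0% and 0.192% for the second. Leaving out the cells with at least 2 markers of either list, a choice made after the data were seen, kept 38 of 92, 260 of 392, 31 of 43 and 451 of 521 cells, called the reduced class below. Its values are given where they move a printed ratio to or within classical monocytes by over 1.5 times or across 1. Spn in the reduced class stood at 71.7, 26.6, 50.5 and 25.2 CPM. Spn was thus above classical monocytes in 3 libraries. In the 12 h IL-22-negative library, where the marker is nearly absent from the members, its lower value rested on 4 UMIs, too few to give a direction. A Spn UMI was found in 50%, 9.76%, 45.0% and 33.9% of members and in 5.68%, 5.38%, 3.12% and 0% of B cells (0 of 22 in the last library). With every cell thinned to 1000 UMIs these shares were 44.4%, 5.00%, 21.1% and 10.1% of members and 1.55%, 1.41%, 0% and 0% of B cells.

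Of genes outside the rule, Eno3 (muscle-type enolase) stood farthest above classical monocytes, at 235, 89.5, 226 and 37.4 CPM against 0, 2.09, 0 and 2.22 CPM. That is 42.9-fold in the 12 h IL-22-negative library and at least 16.3-fold in every library, with an empty sum set to 3 UMIs. Adgre4 (the adhesion receptor EMR4) stood at 266, 107, 221 and 174 CPM against 16.5, 12.5, 60.0 and 35.6 CPM, which is 3.69- to 16.2-fold. Against the reduced class the lowest ratios were 11.9 for Eno3 and 2.70 for Adgre4, and the highest for Adgre4 was 7.43. By the lowest of the 4 ratios, the 10 genes with the highest value were Eno3, Grk3, Adgre4, Hfe, Bcl2a1d, Itgal, Stap1, Gngt2, Pmaip1 and Pou2f2. Itgal encodes the LFA-1 alpha chain, and its ratio to classical monocytes lay between 2.76 and 4.57. Pou2f2 encodes the transcription factor OCT2, with ratios of 2.23 to 3.89. Gngt2, a G protein gamma subunit, reached 764 to 1355 CPM in members, with ratios of 2.47 to 3.79. Nr4a1 was also above classical monocytes in all 4 libraries, at 517, 251, 850 and 680 CPM against 104, 145, 378 and 361 CPM. Cx3cr1, the fractalkine receptor, stood at 282, 131, 332 and 202 CPM against 79.5, 46.4, 244 and 96.0 CPM. The classical cells were chosen by their lack of the rule genes, so these ratios describe the classes and test nothing. Against the reduced class the lowest ratio of these 10 genes was 2.11, for Pmaip1, and that of Nr4a1 was 1.56.

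Genes of classical monocytes were lower in the members but not absent. Ly6c2 stood at 1519, 883, 722 and 797 CPM, against 2884, 1754, 2389 and 1629 CPM in classical monocytes, which the rule chose for it. F13a1, the coagulation factor XIII A chain and a classical-monocyte gene, stood at 204, 430, 75.3 and 491 CPM against 348, 775, 540 and 867 CPM. At least 1 UMI of Ly6c2 or Ccr2 was present in 77.8%, 65.9%, 58.3% and 81.2% of the members. The members are thus non-classical by their leading genes and mixed by Ly6c2 and Ccr2. Whether single members lay between the classical and the non-classical pattern was not tested.

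**Figure D1:**
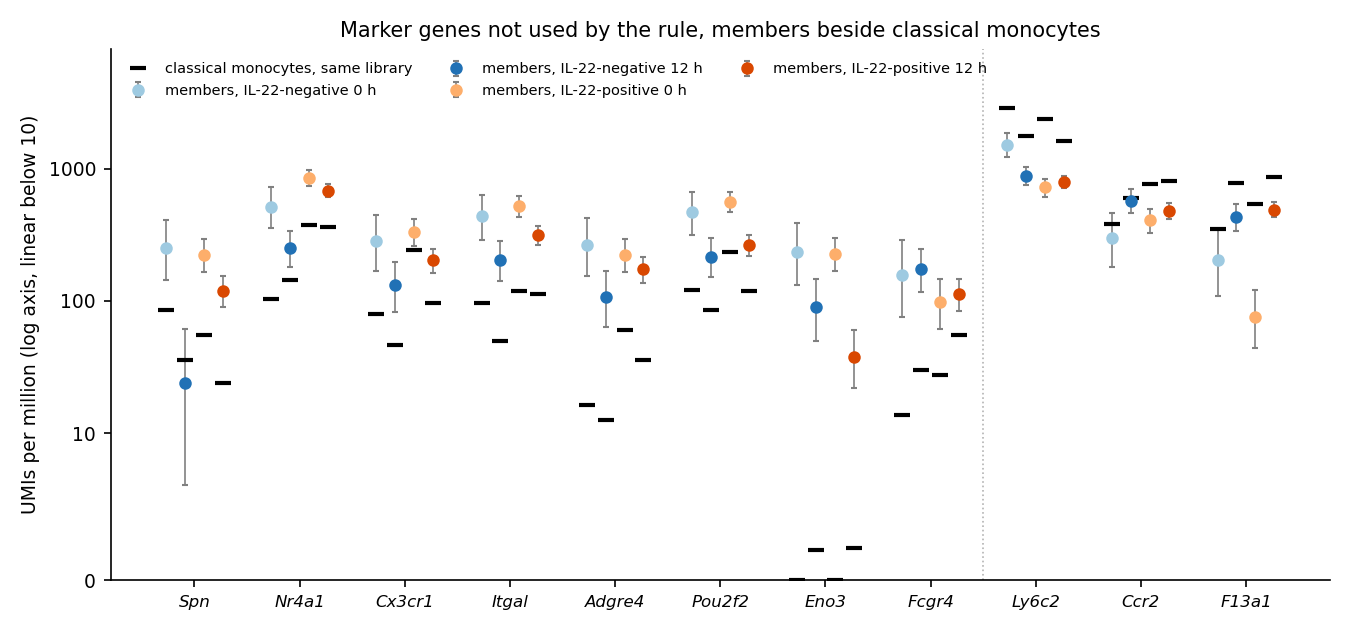
Level of 11 genes in the summed members of each library, in CPM on a log axis, with 95% Poisson intervals and black dashes for classical monocytes of the same library. Eno3, Adgre4, Itgal and Nr4a1 lie above the dashes in all 4 libraries. Spn lies below its dash in the 12 h IL-22-negative library only (23.9 against 36.0 CPM), on 4 UMIs, too few to give a direction.

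The rule's threshold cut through a range of cells. Members with exactly 2 UMIs of Ace, Ear2 and Treml4 numbered 4, 20, 16 and 50, and 18, 56, 28 and 137 further cells passed every other criterion with 1 UMI. Just outside and just inside the threshold, Itgal stood at 111 and 167 CPM in the 0 h IL-22-negative library, 119 and 127 CPM in its 12 h counterpart, 409 and 354 CPM in the 0 h IL-22-positive library and 147 and 217 CPM in its 12 h counterpart. Of cells with at least 2 UMIs of the 3 genes, the largest exclusion was for C1q transcripts in the 12 h IL-22-positive library (23 cells) and for Cd3 transcripts in the IL-22-negative libraries (9 and 11 cells).

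The members held 63873, 167606, 225825 and 454327 UMIs in all, with medians of 3639 to 4192 UMIs per cell. Ribosomal protein genes took 18.5% to 21.6% of their UMIs and mitochondrial genes 1.25% to 1.53%. Median depths of B cells, used as a cell type that should lack monocyte genes, were 1707, 1635, 2186.5 and 1499 UMIs. No member barcode occurred in more than 1 library, while up to 110 kept barcodes were shared by a pair of libraries (both IL-22-negative ones). Marker lists of other cell types were read in the summed members. Basophil and platelet markers were at 0, and the T-cell, NK-cell, hepatocyte, Kupffer-cell and endothelial lists each stood at 204 CPM or lower. At least 2 NK-cell markers were found in 3, 0, 0 and 0 members, which is 16.7% of members in the 0 h IL-22-negative library. The list for Arg1 macrophages (Arg1, Pf4, Spp1, Fn1, Thbs1 and Trem2) stood at 376, 746, 306 and 764 CPM, with at least 2 of its genes in 27.8%, 24.4%, 13.3% and 24.1% of members. Arg1 is at 0 there by the rule, and Pf4 was at 0 in all 4 libraries. The plasmacytoid dendritic cell list stood at 329, 471, 283 and 354 CPM, with Klk1 at 0 in all 4 libraries. The list for cDC2 dendritic cells stood at 454, 483, 642 and 431 CPM, and 1, 7, 13 and 12 members held at least 2 of its genes. The neutrophil list stood at 47.0, 1152, 26.6 and 2465 CPM, and at least 2 of its genes were found in 0, 3, 0 and 5 members. Its genes Retnlg, Mmp9 and Ly6g were at 0 in all 4 libraries. S100a8, S100a9 and Csf3r were present at 12 h in both fractions, and Cxcr2 was present at 12 h in the IL-22-positive one. In the 12 h IL-22-positive library 1 member held 522 of the list's 1120 UMIs.

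Members were a small part of the IL-22-negative libraries and a large part of the IL-22-positive ones. They made up 0.217% (0.129 to 0.342) of kept cells in the 0 h IL-22-negative library, 18 of 8301, and 0.406% (0.291 to 0.550) in its 12 h counterpart, 41 of 10099. In the IL-22-positive libraries they made up 20.8% (16.2 to 25.9) at 0 h, 60 of 289, and 8.30% (6.88 to 9.90) at 12 h, 112 of 1350. The BFP gate set which cells entered each library, and Percoll and the CD45 gate preceded it, so these are shares of sorted cells and not of liver leukocytes. Thinned to 1000 UMIs per cell before the rule was applied, the shares were 0.0774%, 0.107%, 8.66% and 1.97%, with 1845, 720, 12 and 81 shallower cells left out. After thinning, the IL-22-negative shares of 0 h and 12 h rested on 5 and 10 members.

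Of members and classical monocytes together, members were 16.4% (10.0 to 24.6, of 110 cells) and 9.47% (6.88 to 12.6, of 433 cells) in the 0 h and 12 h IL-22-negative libraries. In the IL-22-positive libraries they were 58.3% (48.1 to 67.9, of 103 cells) and 17.7% (14.8 to 20.9, of 633 cells). The IL-22-negative intervals overlap. With the reduced class in place of all classical monocytes the shares were 32.1% (20.3 to 46.0), 13.6% (9.96 to 18.0), 65.9% (55.3 to 75.5) and 19.9% (16.7 to 23.4), where they do not. The order of the IL-22-negative pair against counting error thus depended on the comparison class. Classical monocytes were more numerous in the 12 h libraries, 392 against 92 in the IL-22-negative pair and 521 against 43 in the IL-22-positive pair. Member numbers themselves were higher in the 12 h library of each pair.

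**Figure D2:**
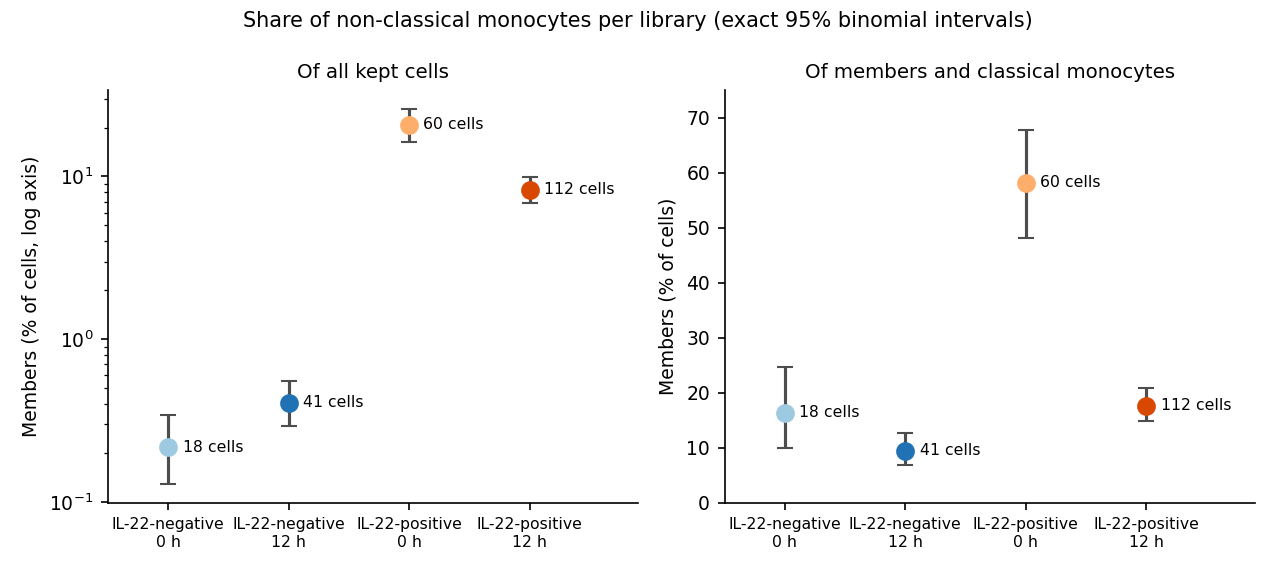
Members as a percentage of kept cells (left, log axis) and of members plus classical monocytes (right), with 95% binomial intervals, for the 4 libraries. The 0 h IL-22-positive library has the highest share in both panels (20.8% and 58.3%).

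At 12 h the members of both fractions held transcripts of acute-phase and neutrophil-type alarmins that were not found at 0 h. In what follows a gene was measured when the higher of its 2 sums had at least 20 UMIs and 100 CPM, and it was counted as higher or lower when the CPM ratio was at least 2 or at most 0.5. Between the IL-22-negative libraries 154 of 898 measured genes (17.1%) were higher at 12 h and 27 (3.01%) lower. Between the IL-22-positive ones 96 of 1459 (6.58%) were higher and 77 (5.28%) lower. The alarmin and acute-phase list of 23 genes had 5 of 16 measured genes higher and 0 lower in the IL-22-negative fraction, and 10 of 20 higher and 2 lower in the IL-22-positive fraction. Its median log2 ratios were 0.49 and 0.86, against 0.26 and 0.03 over all measured genes. The list was chosen with results of these libraries known, so its direction is not independent evidence.

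S100a8, a subunit of the calprotectin dimer that neutrophils store, had 0, 177, 0 and 942 UMIs, or 0, 1056, 0 and 2073 CPM. No member of 0 h held it, which allows up to 47.0 CPM in the IL-22-negative and 13.3 CPM in the IL-22-positive library. Both 12 h libraries stood far above these limits, at 22.5 times the limit in the IL-22-negative and 156 times in the IL-22-positive fraction. The exact 95% lower limits of the ratios were 18.1 and 127. Folds written below as at least a value divide by such a limit and leave out counting error in the other sum. The transcript sat in few cells, 13 of 41 and 24 of 112 members, and the 5 members with the most held 89.3% and 87.7% of its UMIs. A UMI of S100a8 was found in 31.7% and 21.4% of members of 12 h and in 1.57% and 4.55% of B cells of the same libraries. Thinned to 1000 UMIs, these shares were 20% and 11.9% of members and 0.831% and 0% of B cells. S100a9, its partner subunit, had 7 UMIs in the 12 h IL-22-negative library and 154 UMIs, all in 1 cell, in the IL-22-positive one. Classical monocytes held more S100a8 at 12 h, 3364 and 3076 CPM, against 5.48 and 4.61 CPM at 0 h.

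Saa3, a serum amyloid A made by macrophages, stood at 0, 835, 0 and 724 CPM, from 140 and 329 UMIs at 12 h. It was spread over more cells than S100a8 in the IL-22-positive library, with 12 and 35 members holding it. Its folds at 12 h were at least 17.8 and at least 54.5, with exact 95% lower limits of 14.3 and 44.1. Lcn2, the iron-siderophore binding lipocalin, stood at 0, 579, 0 and 473 CPM, at least 12.3-fold and at least 35.6-fold higher at 12 h. The exact 95% lower limits for Lcn2 were 9.83 and 28.7. Slpi, an inhibitor of neutrophil elastase, was present at 0 h and higher at 12 h, at 125, 567, 44.3 and 414 CPM. Its ratios were 4.53 (2.21 to 10.8) and 9.34 (4.97 to 19.8). S100a11, another S100 protein, stood at 454, 1390, 700 and 1459 CPM. Classical monocytes were also higher at 12 h for each of these genes, with Saa3 at 8.23, 1090, 41.5 and 1958 CPM and Lcn2 at 11, 757, 27.7 and 824 CPM. Members that held at least 2 neutrophil or dendritic-cell markers were then left out, and 30 of 41 and 95 of 112 members remain at 12 h. The folds in this set were at least 7.92 and at least 69.2 for S100a8. They were at least 21.2 and at least 45.0 for Saa3, and at least 4.65 and at least 22 for Lcn2. S100a8 and S100a9 are themselves on the neutrophil list, and the part of neutrophil RNA in these levels was not tested beyond this.

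The alarmins were concentrated in members that also held Ly6c2 or Ccr2. Of the members of 12 h, 14 in the IL-22-negative and 21 in the IL-22-positive library had no UMI of either gene, and 27 and 91 had at least 1. S100a8 stood at 52.7 CPM without and 1350 CPM with these UMIs in the IL-22-negative fraction, and at 34.1 and 2376 CPM in the IL-22-positive fraction. Saa3 stood at 158 and 1034 CPM in the IL-22-negative and at 0 and 831 CPM in the IL-22-positive fraction. Lcn2 stood at 132 and 710 CPM, and at 34.1 and 538 CPM. F13a1 was split alike, at 132 and 517 CPM and at 34.1 and 558 CPM. Chil3, a chitinase-like protein of classical monocytes, stood at 79.0 and 1435 CPM and at 273 and 776 CPM. Hp, which encodes haptoglobin, stood at 474 and 1358 CPM in the IL-22-negative but at 921 and 935 CPM in the IL-22-positive fraction. Cells without Ly6c2 or Ccr2 were shallower, with median depths of 2245 and 2451 UMIs against 4905 and 4270, and the part of depth in the split was not tested.

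**Figure D3:**
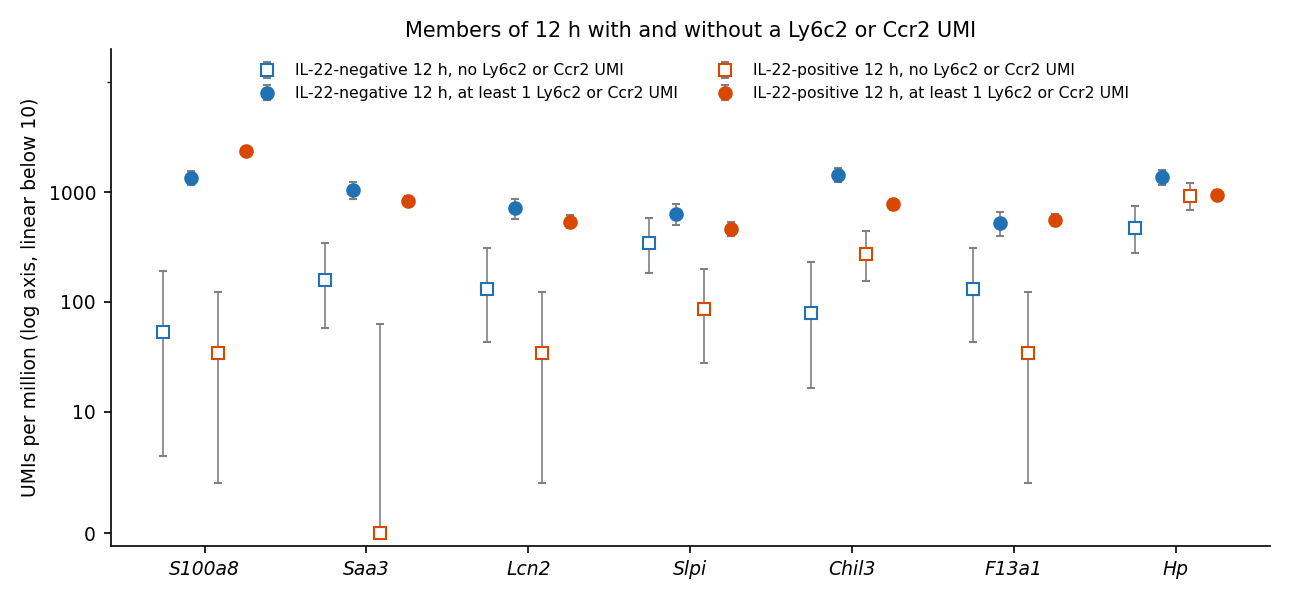
Level of 7 genes in members of 12 h without and with a UMI of Ly6c2 or Ccr2, in CPM with 95% Poisson intervals, for the IL-22-negative and the IL-22-positive library. S100a8, Saa3, Lcn2 and F13a1 lie higher in cells with these UMIs in both libraries, and Hp does so in the IL-22-negative library only.

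Some genes of classical monocytes were higher at 12 h in the members. Of the list's 12 measured genes, 3 were higher and 0 lower in the IL-22-negative fraction (Chil3, Fn1 and F13a1), and 5 were higher and 0 lower in the IL-22-positive fraction (Hp, Chil3, F13a1, Fn1 and Vcan). The first count is near the 17.1% of all genes that were higher, and the second stands beside 6.58%. The median log2 ratios were 0.42 and 0.19, against 0.26 and 0.03 over all genes. Not every gene rose: in the IL-22-negative fraction Ly6c2 was 0.581-fold (0.447 to 0.759) and Ccr2 1.93-fold (1.17 to 3.34), neither past the threshold. In that 0 h library 1 member held 42.3% of the Ly6c2 UMIs. Ly6c2 stood at 722 and 797 CPM in the IL-22-positive fraction. Chil3 stood at 110, 1128, 208 and 711 CPM, a ratio of 10.3 (4.90 to 25.9) in the IL-22-negative fraction. F13a1 stood at 204, 430, 75.3 and 491 CPM, a ratio of 6.52 (3.98 to 11.4) in the IL-22-positive fraction, where classical monocytes gave 1.61. Among IL-22-positive members with no Ly6c2 or Ccr2 UMI the F13a1 ratio was 0.630, from 4 and 2 UMIs and with an interval of 0.0570 to 4.40, which gives no direction. Hp stood at 783, 1157, 257 and 933 CPM, and its ratio of 3.63 (2.76 to 4.87) in the IL-22-positive fraction stood beside 1.13 in classical monocytes. Vcan, a matrix proteoglycan, had 1 UMI at 0 h and 71 at 12 h in the IL-22-positive fraction, a ratio of 35.3 (6.13 to 1413).

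Some genes of the non-classical pattern were lower at 12 h. Of the list's 12 measured genes in the IL-22-negative fraction, 4 were lower (Klf2, Nr4a1, Pou2f2 and Itgal) and 1 higher (Bcl2a1b). Of 24 measured in the IL-22-positive fraction, 4 were lower (Klf2, Pou2f2, Pglyrp1 and Eno3) and 0 higher. The median log2 ratios were -0.60 and -0.54, against 0.26 and 0.03 over all genes, of which 3.01% and 5.28% were lower. Klf2, a transcription factor of quiescence and shear response, stood at 2254, 925, 1559 and 491 CPM, ratios of 0.410 (0.325 to 0.518) and 0.315 (0.265 to 0.373). Classical monocytes had Klf2 ratios of 0.657 and 0.291. Pou2f2 stood at 470, 215, 562 and 264 CPM, with ratios of 0.457 and 0.470, beside 0.709 and 0.503 in classical monocytes. Itgal stood at 438, 203, 523 and 313 CPM, a ratio of 0.463 in the IL-22-negative fraction, beside 0.516 in classical monocytes. Lower values of Klf2, Pou2f2 and Itgal at 12 h were thus not particular to the members. Nr4a1, the factor that these cells depend on, was 0.485-fold (0.30 to 0.79) in the IL-22-negative fraction, beside 1.39 in classical monocytes. Nr4a1 was not past the threshold in the IL-22-positive fraction, at 850 and 680 CPM. Eno3 was 0.166-fold (0.0897 to 0.292) and Pglyrp1, a peptidoglycan recognition protein, 0.270-fold (0.195 to 0.370) in the IL-22-positive fraction. In classical monocytes of that fraction Pglyrp1 was 0.648-fold, and Eno3 had 0 and 5 UMIs. Spn was below the minimum for a measured gene in the IL-22-negative fraction, where its 16 and 4 UMIs gave a ratio of 0.0953. Classical monocytes there had a Spn ratio of 0.423. With at least 3 UMIs of Ace, Ear2 and Treml4 required, 1 gene of this list stayed lower in the IL-22-negative fraction in place of 4, and 1 stayed so without each gene's top cell. The Nr4a1 ratio was 0.721 and 0.640 in these sets. The mix of cells near the threshold and the level per cell cannot be told apart in these sums.

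Class II antigen-presentation genes were higher at 12 h in the summed IL-22-negative members. All 6 measured genes of the 13 were higher at 12 h in the IL-22-negative members, with a median log2 ratio of 1.49, while in the IL-22-positive members 0 were higher and 1 was lower (Cd74), with a median of -0.47. Of all measured genes 17.1% were higher in the IL-22-negative pair, and 6.58% were higher and 5.28% lower in the IL-22-positive pair. The difference between the fractions was not tested. H2-Aa, a chain of the MHC class II molecule I-A, stood at 705, 3073, 3636 and 2212 CPM, from 45, 515, 821 and 1005 UMIs. The 0 h IL-22-negative library was thus the low one, and the other 3 lay between 2212 and 3636 CPM. The ratio at 12 h was 4.36 (3.21 to 6.05) in the IL-22-negative and 0.608 in the IL-22-positive members, against 1.14 for the IL-22-negative pair in classical monocytes and 1.84 in the reduced class. H2-Ab1 stood at 485, 1975, 2077 and 1774 CPM and H2-Eb1 at 517, 1665, 2396 and 1257 CPM, in the same order. Cd74, the invariant chain that escorts class II molecules, stood at 5542, 11646, 12085 and 5454 CPM, with ratios of 2.10 in the IL-22-negative and 0.451 (0.427 to 0.477) in the IL-22-positive fraction. Without its top cell the second ratio was 0.516, which is not past the threshold. The Cd74 ratio in classical monocytes of the IL-22-positive fraction was 0.334. Ciita, the master regulator of these genes, had 1, 9, 12 and 35 UMIs and was not measured at these sums.

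Class II transcripts were unevenly spread over members. The 5 cells with the most UMIs of H2-Aa, H2-Ab1, H2-Eb1 and Cd74 held 82.1%, 62.8%, 48.9% and 26.8% of these UMIs, and the median member had 4.5, 9, 5 and 17. As CPM of its own UMIs, the median member's level of the 4 genes was 1280, 2117, 2599 and 4957, higher at 12 h in both fractions. The highest member had 126, 583, 670 and 365. An H2-Aa UMI was found in 38.9%, 48.8%, 46.7% and 56.2% of members, and in 38.9%, 37.5%, 38.6% and 47.7% after thinning to 1000 UMIs. B cells carry class II themselves and give no background for it. In the IL-22-negative pair the thinned shares were nearly equal while the summed level differed 4.36-fold. Without the members that held at least 2 neutrophil or dendritic-cell markers, the H2-Aa ratio was 3.10 in the IL-22-negative and 1.20 in the IL-22-positive fraction, and 3 of 6 class II genes stayed higher in the IL-22-negative fraction with 0 lower in the IL-22-positive one. Members of the 12 h IL-22-negative library without Ly6c2 or Ccr2 held more H2-Aa than those with them, 7587 against 1751 CPM.

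Among the genes that NF-kappaB is known to switch on, many of them its own brakes, some were higher at 12 h. Of 9 measured genes of the 22, 6 were higher in the IL-22-negative members and 0 lower (Ier3, Sod2, Tnfaip2, Icam1, Tnfaip3 and Traf1), against 17.1% of all measured genes higher, and the list's median log2 ratio was 1.25 against 0.26 over all. In the IL-22-positive members 1 of 11 was higher (Ier3) and 0 lower, with a median of 0.36. Of all measured genes there 6.58% were higher, with a median of 0.03. The promoters of the 3 with the most UMIs are shown because these genes stood higher together, with the kappaB core GGANTTTCC in capitals where either strand holds it. Each is 300 bases long, from 250 bases before to 50 after the transcription start, from RefSeq on build GRCm38.p6, plus strand.
Ier3 promoter, chr17:35821463-35821762: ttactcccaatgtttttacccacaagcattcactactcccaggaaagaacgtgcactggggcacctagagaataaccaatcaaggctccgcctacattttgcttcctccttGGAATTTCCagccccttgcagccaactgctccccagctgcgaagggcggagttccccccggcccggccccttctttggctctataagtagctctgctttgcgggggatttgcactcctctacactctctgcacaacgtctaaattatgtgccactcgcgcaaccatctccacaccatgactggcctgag
Sod2 promoter, chr17:13007589-13007888: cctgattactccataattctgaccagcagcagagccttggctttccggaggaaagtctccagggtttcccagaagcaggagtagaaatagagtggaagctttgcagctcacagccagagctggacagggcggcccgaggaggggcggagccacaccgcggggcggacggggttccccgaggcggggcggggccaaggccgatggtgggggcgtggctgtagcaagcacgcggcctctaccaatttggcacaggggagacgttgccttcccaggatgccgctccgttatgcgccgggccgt
Tnfaip2 promoter, chr12:111442411-111442710: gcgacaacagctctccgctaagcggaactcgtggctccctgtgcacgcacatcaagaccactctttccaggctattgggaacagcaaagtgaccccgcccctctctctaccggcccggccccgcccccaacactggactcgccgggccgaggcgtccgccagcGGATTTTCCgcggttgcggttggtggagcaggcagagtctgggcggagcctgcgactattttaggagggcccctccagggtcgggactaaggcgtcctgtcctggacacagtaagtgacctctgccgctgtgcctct
The match in Ier3 starts 139 bases and that in Tnfaip2 87 bases before the start, both on the plus strand, and the Sod2 window holds none. Of the 6 genes, 4 had a match in at least 1 listed promoter. Over all 32851 mouse promoters of this length 412 (1.25%) hold it. The list was made of known NF-kappaB targets, so matches in its genes are no separate evidence. A match describes letters and does not show a bound site.

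Ier3, an immediate-early gene of stress and survival, stood at 141, 752, 226 and 728 CPM, from 9, 126, 51 and 331 UMIs. Both libraries of 12 h were high and both of 0 h low, with ratios of 5.34 (2.72 to 11.9) and 3.23 (2.40 to 4.42). Classical monocytes of the IL-22-negative fraction gave an Ier3 ratio of 3.83. Sod2, the mitochondrial superoxide dismutase, stood at 62.6, 388, 275 and 431 CPM. Its ratio of 6.19 (2.31 to 23.4) in the IL-22-negative members stood beside 1.38 in classical monocytes (1.00 in the reduced class) and rested on 4 UMIs at 0 h. Tnfaip2, a TNF-induced protein of endothelial and myeloid cells, stood at 110, 292, 332 and 555 CPM. Icam1, the ligand of LFA-1, had 2, 28, 28 and 91 UMIs, a ratio of 5.34 (1.35 to 46.2) in the IL-22-negative members. The intervals of Tnfaip3 (2.13, 0.814 to 7.08), which encodes the brake A20, and of Traf1 (2.38, 0.823 to 9.42) reach below 1. For these 6 genes, as for H2-Aa, the 0 h IL-22-negative library was the lowest of the 4. In the set with at least 3 UMIs of Ace, Ear2 and Treml4, 3 of 6 measured genes of the list were higher, and median-ratio scaling gave 4 of 9.

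Interferon-response genes were partly higher at 12 h. Of 12 measured genes of the 30 in the IL-22-negative members, 4 were higher (Isg15, Slfn5, Rtp4 and Ifit2) and 0 lower. The list's median log2 ratio was 0.59. All measured genes there had 17.1% higher and 3.01% lower, with a median of 0.26. In the IL-22-positive members 2 of 13 were higher (Isg15 and Rsad2) and 1 lower (Phf11b), with a median of 0.07. All measured genes there had 6.58% higher and 5.28% lower, with a median of 0.03. Isg15, a ubiquitin-like modifier, stood at 282, 835, 239 and 746 CPM. Cxcl10, a chemokine that interferon gamma induces and that draws CXCR3-bearing T cells, was higher at 12 h in both fractions, at 204, 728, 328 and 812 CPM. Cxcl9, its relative, stood at 0, 257, 345 and 280 CPM but in 0, 2, 2 and 6 cells only.

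Cytokine and chemokine genes were higher at 12 h for a few members of each list. Il1b stood at 157, 603, 301 and 700 CPM, and its 12 h libraries were both above its 0 h ones. Cxcl2, a neutrophil attractant, stood at 1018, 2434, 1209 and 2621 CPM, in the same order. Of 10 measured chemokine genes in the IL-22-positive members, 4 were higher (Cxcl2, Cxcl10, Ccl2 and Ccl24) and 0 lower. Ccl24, an eosinophil attractant, had 1, 0, 0 and 89 UMIs, all of the last in 7 cells, at least 14.7-fold higher at 12 h in the IL-22-positive fraction. Of 9 measured in the IL-22-negative members, 4 were higher (Cxcl2, Cxcl10, Ccl4 and Cxcl9) and 1 lower (Ccl5). Among all measured genes 6.58% were higher and 5.28% lower in the IL-22-positive pair, and 17.1% and 3.01% in the IL-22-negative pair. The chemokine list's median log2 ratios were 0.20 and 0.61 in these pairs, against 0.03 and 0.26 over all genes. Ccl5, a T-cell and NK-cell chemokine, stood at 391, 65.6, 35.4 and 26.4 CPM in members, at 1667, 715, 78.4 and 136 CPM in classical monocytes and at 510, 551, 0 and 0 CPM in B cells. In the reduced class it stood at 101, 73.7, 75.7 and 97.8 CPM. The NK-cell list of the members stood at 204, 71.6, 0 and 2.20 CPM, and its part in the Ccl5 levels of the members was not tested. Among inflammatory cytokines 3 of 6 measured were higher in the IL-22-positive members (Il1b, Il1rn and Osm), with Il1rn, the IL-1 receptor antagonist, at 0, 7, 8 and 47 UMIs.

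Of lysosomal genes, Ifi30, Ctsc and Ctsd, a thiol reductase and 2 cathepsins of antigen processing, were the 3 higher at 12 h in each fraction, out of 15 and 19 measured. The first count is near the 17.1% higher over all genes, and 6.58% of all genes were higher in the IL-22-positive fraction. Ifi30 stood at 704.5, 1486, 615.5 and 1576 CPM, with ratios of 2.11 and 2.56, while the list's median log2 ratios were -0.21 and -0.25. Of 7 measured scavenger and lipid genes in the IL-22-positive members, 3 were higher (Apoe, Trem2 and Lpl) and 0 lower. Apoe, which encodes apolipoprotein E, stood at 1346, 1498, 988 and 2139 CPM. Lpl, which encodes lipoprotein lipase, had 4, 1, 9 and 51 UMIs. Cd36, a scavenger receptor reported on non-classical monocytes, had 3, 3, 22 and 13 UMIs.

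The chaperone genes Hspa1a and Hspa1b, taken from the list of immediate-early and dissociation genes, were lower at 12 h in both fractions. Hspa1a stood at 360, 71.6, 323 and 50.6 CPM, with ratios of 0.199 (0.0902 to 0.416) and 0.157 (0.0935 to 0.253), and Hspa1b at 329, 89.5, 124 and 37.4 CPM. Without its top cell the Hspa1b ratio in the IL-22-negative members was 0.635 in place of 0.272, not past the threshold. Classical monocytes had Hspa1a ratios of 1.30 (0.936 in the reduced class) in the IL-22-negative and 0.504 in the IL-22-positive fraction. These are inducible chaperones that tissue dissociation is known to raise. Egr1, an immediate-early factor, stood in the other direction, at 78.3, 185, 70.9 and 302 CPM. Mif, a cytokine and hypoxia target, was 4.23-fold (2.84 to 6.56) higher in the IL-22-positive members, with 3.64 in classical monocytes. Adhesion genes had 2 of 10 measured lower (Itgb2 and Itgal) and 1 higher (Icam1) in the IL-22-negative members. In the IL-22-positive members 3 of 15 were lower (Coro1a, Selplg and Cd9) and 0 higher. The list's median log2 ratios were -0.30 and -0.325, against 0.26 and 0.03 over all genes. All measured genes had 3.01% and 5.28% lower and 17.1% and 6.58% higher in these pairs. No measured Fc receptor gene was called in the IL-22-negative members, and 1 of 9 was lower (Fgr) in the IL-22-positive ones. Fcgr4, the activating receptor typical of the subset, stood at 157, 173, 97.4 and 112 CPM.

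**Figure D4:**
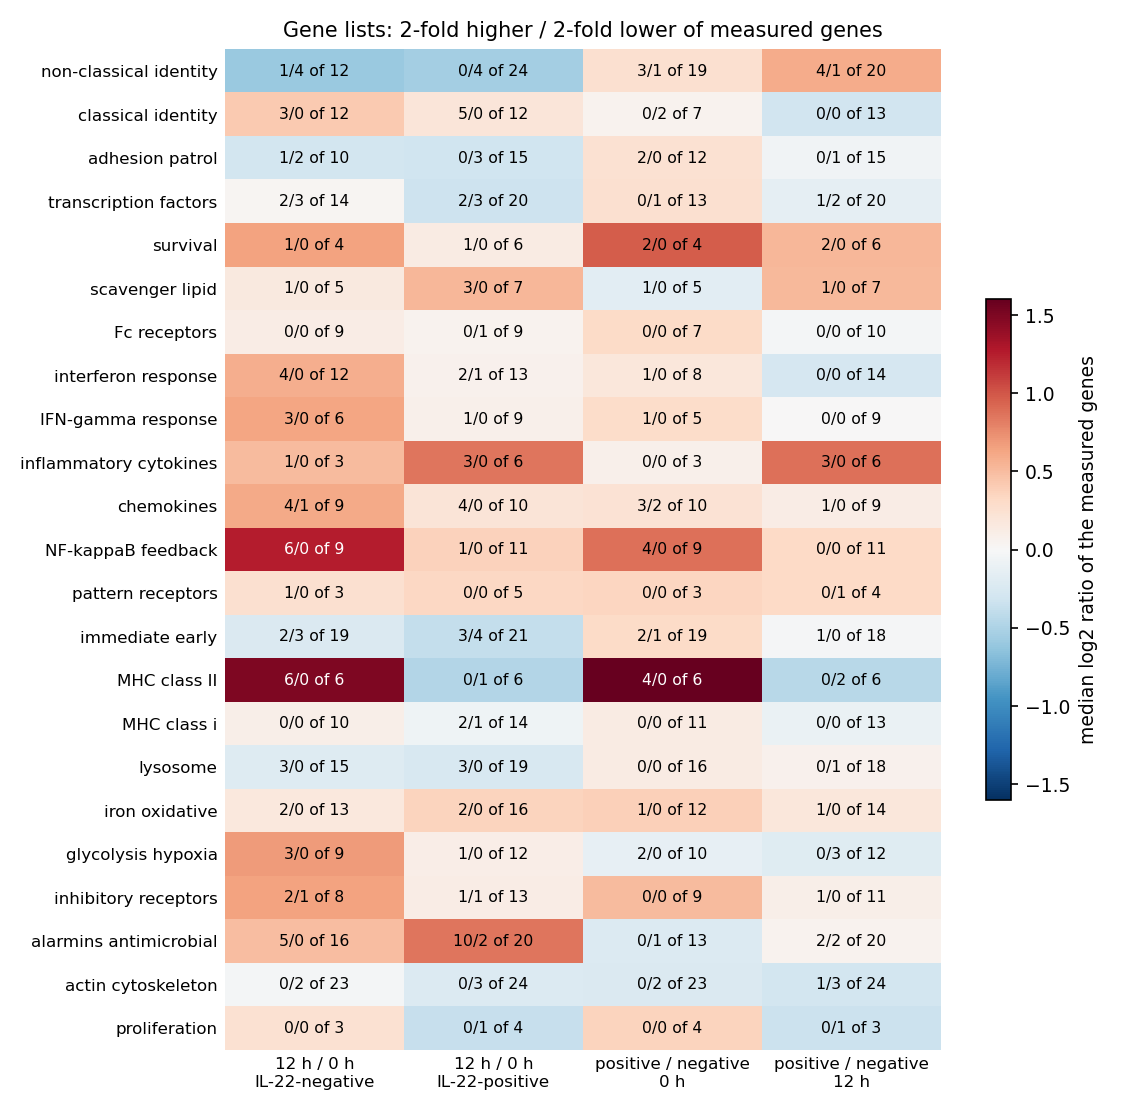
Gene lists of the members for each comparison, as the median log2 CPM ratio of the measured genes and the numbers of measured genes at least 2-fold higher or lower. Class II genes have medians of 1.49 and -0.47 at 12 h in the negative and positive fractions, and non-classical identity genes lie below 0 in both (-0.60 and -0.54).

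Counts for the other lists stand beside the 17.1% and 6.58% of all genes higher and the 3.01% and 5.28% lower. In the IL-22-negative and then the IL-22-positive members at 12 h, the interferon gamma list had 3 of 6 and 1 of 9 measured genes higher, and the glycolysis and hypoxia list 3 of 9 and 1 of 12, with 0 lower in each. Iron and oxidative-defence genes had 2 of 13 and 2 of 16 higher, survival genes 1 of 4 and 1 of 6, and pattern-recognition receptors 1 of 3 and 0 of 5, again with 0 lower. Transcription factors had 2 of 14 higher and 3 lower, then 2 of 20 higher and 3 lower. Actin genes had 2 of 23 and 3 of 24 lower and 0 higher. Class I antigen-presentation genes had 0 of 10 called, then 2 of 14 higher and 1 lower. Inhibitory receptors had 2 of 8 higher and 1 lower, then 1 of 13 higher and 1 lower. Immediate-early genes had 2 of 19 higher and 3 lower, then 3 of 21 higher and 4 lower. Complement genes had 0 called of 2 and 3, and proliferation genes 0 of 3 called and 1 of 4 lower. No hepatocyte gene reached the minimum.

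The pair of time comparisons share no library and could be set side by side. Over 842 genes measured in both, the log2 ratios had a Pearson r of 0.51 and a Spearman rho of 0.40, across genes, which are not independent and share each library's total. At least 2-fold higher at 12 h in both were 36 genes, 23.4% of those higher in the IL-22-negative and 37.5% of those higher in the IL-22-positive members. Lower in both were 12 genes, 44.4% and 15.6% of the lists: Cd300a, Hspa1a, Hspa1b, Klf2, Mbp, Neat1, Pabpc1, Pou2f2, Rnase6, Stk10, Stk24 and Stk38. Cd300a encodes an inhibitory receptor of myeloid cells, and Stk10, Stk24 and Stk38 are serine-threonine kinases. Only Cd74 and Psmd13, a proteasome subunit, were called in opposite directions. By the bound of the ratio nearest to 1, the named genes with higher values at 12 h also included Lrg1 and Tgm2 in the IL-22-negative members, at least 5.84-fold and at least 3.56-fold, and Fam162a, Igfbp6 and Mif in the IL-22-positive ones. Igfbp6, a binding protein of insulin-like growth factors, was 11.4-fold (3.75 to 56.8) higher there, with 42.5 in classical monocytes. Named genes with lower values included Cytip, Lars2, Ezr, Mbp, Myo1g, Ypel3 and Stk38 in the IL-22-negative members, with Cytip, a regulator of integrin adhesion, at 611 and 197 CPM. Lars2 was not past the threshold without its top cell, at 0.636. In the IL-22-positive members they included Tuba1a, Tagln2, Sat1, Fabp4, Pdlim1, Lsp1 and Pabpc1, with Tagln2 at 0.347-fold (0.262 to 0.457). Some large ratios came from 1 cell. AY036118 was 0.0597-fold in the IL-22-negative members and 0.280-fold without the cell that held 78.7% of its 300 UMIs at 0 h. Ccnb1ip1 was 6.46-fold higher in the IL-22-positive members and 0.870-fold without its top cell.

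**Figure D5:**
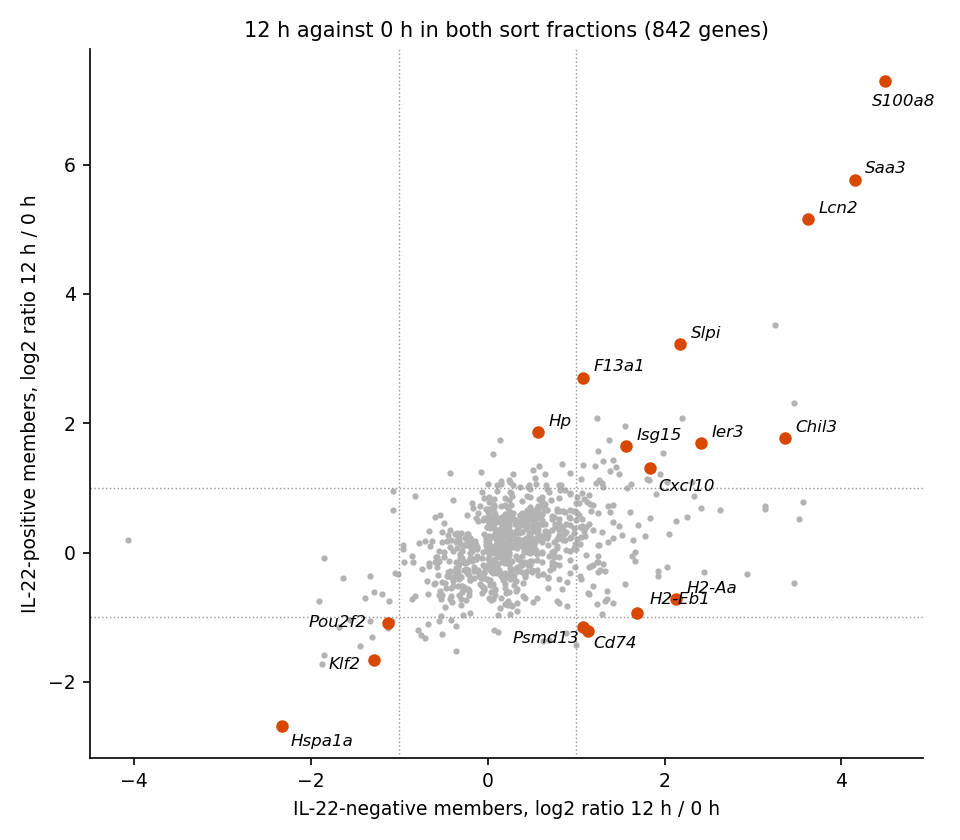
Log2 CPM ratio of 12 h to 0 h in IL-22-negative members (x axis) against that in IL-22-positive members (y axis) for 842 genes. An empty sum was set to 3 UMIs, as for S100a8, Saa3 and Lcn2 at 0 h. Alarmins lie at the upper right, Klf2 and Hspa1a at the lower left, and Cd74 at the lower right.

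At 0 h class II genes had the highest median ratio of the lists in the IL-22-positive against the IL-22-negative members, while single genes such as Cebpb and Ccl5 differed more. The Ccl5 ratio of 0.0905 rested on 8 and 25 UMIs, and was 0.0470 in classical monocytes but 0.746 in the reduced class. A Ccl5 UMI was found in 0% of IL-22-positive and 45.2% of IL-22-negative B cells at 0 h. Of 930 measured genes 114 (12.3%) were higher and 18 (1.94%) lower in the IL-22-positive members, which rest on 60 and 18 cells. Of 6 measured class II genes 4 stood higher (H2-Aa, H2-Eb1, H2-Ab1 and Cd74) and 0 lower. Their median log2 ratio was 1.61, against 0.24 over all genes. H2-Aa was 5.16-fold (3.82 to 7.13), H2-Eb1 4.64-fold (3.26 to 6.81) and H2-Ab1 4.28-fold (2.97 to 6.37) higher, while the H2-Aa ratio in classical monocytes was 1.13, or 2.33 in the reduced class. Few cells carried this difference: the 5 highest members held 82.1% and 48.9% of class II UMIs at 0 h, the median member had 4.5 and 5, and the thinned shares with H2-Aa were 38.9% and 38.6%. Without its top cell the Cd74 ratio was 1.91, not past the threshold. Without members holding neutrophil or dendritic-cell markers the H2-Aa ratio was 3.25. Bcl2a1b, an anti-apoptotic BCL2 relative, stood at 62.6 and 438 CPM, a ratio of 7.0 (2.65 to 26.2) in members and 6.03 in classical monocytes. Ccl4 was 4.43-fold (1.96 to 12.4) higher in members and 0.598-fold in classical monocytes, or 1.44-fold in the reduced class. Tgm2, tissue transglutaminase, was absent from the IL-22-negative members and at least 3.21-fold higher in the IL-22-positive ones. Of 7 measured classical-type genes 2 were lower and 0 higher, with a list median of 0.06: Hp at 0.328-fold (0.221 to 0.489) and Ly6c2 at 0.475-fold (0.367 to 0.618), or 0.823-fold without its top cell. Ccl2 was lower too, at 0.274-fold (0.160 to 0.467). The other named genes were Samd9l, Tomm7, Sod2, Marcksl1, Lmo4 and Cd74 among the higher and AY036118, Ccl5, Lars2, Kxd1, Fam89b, Coro1b, Tagln2 and Eif3i among the lower ones, with Sod2 4.38-fold higher and Tagln2 at 0.588 without its top cell, not past the threshold.

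The transcription factor gene Cebpb, which is required for the survival of non-classical monocytes, differed between the fractions at both times. It stood at 2427, 2446, 270 and 491 CPM, from 155, 410, 61 and 223 UMIs. Both IL-22-negative libraries were high and both IL-22-positive ones low, with ratios of 0.111 (0.0814 to 0.151) at 0 h and 0.201 (0.17 to 0.237) at 12 h. A Cebpb UMI was present in 94.4%, 95.1%, 55.0% and 77.7% of members and, thinned to 1000 UMIs, in 88.9%, 85.0%, 28.1% and 33.9%. Classical monocytes showed the same split at 993, 1599, 148 and 479 CPM, and B cells held 105, 118, 23.6 and 0 CPM. A Cebpb UMI was found in 17.9%, 22.6%, 6.25% and 0% of B cells. The gap was thus not particular to the members, and library preparation and sort fraction cannot be told apart here. Tagln2, an actin-binding protein, was split in the same direction, at 1206, 943, 571 and 198 CPM in members and 1407, 1441, 567 and 291 CPM in classical monocytes.

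At 12 h a few genes of the non-classical pattern were higher in the IL-22-positive than in the IL-22-negative members. Of 1349 measured genes 44 (3.26%) were higher and 86 (6.38%) lower. Of 20 measured genes of the non-classical list, 4 were higher (Nr4a1, Bcl2a1b, Spn and Hes1) and 1 lower (Cebpb), with a median log2 ratio of 0.59 against 0.01 over all genes. Nr4a1 was 2.71-fold (1.96 to 3.84) higher, with 2.49 in classical monocytes. Spn was 4.98-fold (1.84 to 18.9) higher, with 0.667 in classical monocytes. Hes1, a target of Notch signalling, was 5.78-fold (1.86 to 29.0) higher and rested on 3 UMIs in the IL-22-negative members. Its ratio in classical monocytes was 3.56. Bcl2a1b was 2.25-fold (1.65 to 3.15) higher, with 3.25 in classical monocytes. Mapkapk2, a kinase downstream of p38, stood at 109.6, 71.6, 292 and 251 CPM and was higher in the IL-22-positive members at both times. Classical-type genes showed 0 of 13 measured past the threshold in either direction, with a median of -0.31. Class II genes had 2 of 6 lower (Cd74 and H2-DMb1), and 0 of 6 without members holding neutrophil or dendritic-cell markers or without each gene's top cell. Gng10, a G protein gamma subunit, was the lowest by its interval, at 0.156-fold (0.103 to 0.233) in members and 0.193 in classical monocytes. Other named genes were Ccnb1ip1, Lpl, Ehd1, Sirpa, Bcl2a1a, Csf2rb and Sema4d among the higher and Tor1a, Dnajc7, Glrx, Aup1, Tuba1b, Slc25a3, Rbm3, Pnp and Eif3m among the lower ones. Of these, Csf2rb, the common beta chain of the GM-CSF, IL-3 and IL-5 receptors, was 2.30-fold (1.45 to 3.84) higher. Aldoa, Ldha and Tpi1, enzymes of glycolysis, were lower in the IL-22-positive members, 3 of 12 measured genes of that list, with Aldoa at 794 and 321 CPM.

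The gate was set on IL-22-BFP, and Il22 itself was at 0 UMIs in the members of all 4 libraries, which allows up to 47.0, 17.9, 13.3 and 6.60 CPM. Il22ra1, the specific chain of the IL-22 receptor, was also at 0. Il10rb, the chain it shares with the IL-10 receptor, had 4, 6, 9 and 16 UMIs, or 62.6, 35.8, 39.9 and 35.2 CPM. The members of the IL-22-positive libraries were thus in the gate without a detected Il22 transcript, and why they were there was not tested.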

How the data were processed

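Per the labels' protocols, livers were digested with collagenase and DNase, and leukocytes were taken from a Percoll gradient and sorted. The authors deposited a matrix of raw UMI counts for each library, all whole numbers. The matrices were written by Cell Ranger 4.0.0 per the file headers, while the submitters' processing notes name Cell Ranger 3.0.1 and the mm10 genome.

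A barcode was kept with 200 genes or more and a mitochondrial share under 10%. Of 8555 and 10231 barcodes in the IL-22-negative libraries (0 h, then 12 h) this kept 8301 and 10099, and of 300 and 1378 in the IL-22-positive pair it kept 289 and 1350. The UMI rule was then applied, and the counts of member cells were summed per library and divided by their total to give CPM. Classical monocytes and B cells of the same libraries served for comparison. B cells had at least 2 UMIs of Cd79a and Ms4a1 and none of Lyz2 or Cd3 genes. Cell classes rest on these transcripts alone, since no annotation of cells was used here.

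Each comparison is the ratio of 2 sums. A sum of 0 was set to 3 UMIs per library, and the ratio is then written as at least that value. Counting error in the other sum is not part of such a value. Measured and called genes are defined beside their first use. For each comparison the 12 highest and 12 lowest measured genes were named, ranked by the 95% bound of the ratio nearest to 1, among genes with a UMI in at least 10% of the members of the higher library, leaving out the genes of the rule and mitochondrial, ribosomal protein, antigen receptor, Xist, Y-linked and hepatocyte genes. The called members of 26 program lists and 17 genes of monocyte identity and the IL-22 pathway were added, of which 1 is not reported here, and other genes with values were chosen after they were seen. The members and lists were chosen with earlier results of these data known.

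Doublets were kept in, as in the rule. Scrublet in scanpy 1.11.5 was run as an alternative, where it called 6 of 10099 cells (0.0594%) of the 12 h IL-22-negative library. The highest 8.08% of scores were therefore used there, a choice made after that result was seen. It marked 7 of the 231 members. In the 12 h IL-22-positive library its calls were 5 of 1350 cells (0.370%). Analyses used Python 3.11.15, numpy 2.4.6, scipy 1.17.1, pandas 2.3.3 and matplotlib 3.10.9 and were tested on simulated counts.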

Additional observations from a re-analysis of the deposited data

Results flagged for a closer look

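For 2 genes the ratio of 12 h to 0 h lay past the threshold in opposite directions in the IL-22-negative and the IL-22-positive members. Cd74 was 2.10-fold in the IL-22-negative and 0.451-fold in the IL-22-positive members, or 0.516-fold in the latter without its top cell. Psmd13 was 2.19-fold (0.749 to 8.72) in the IL-22-negative members, from 4 and 23 UMIs, and 0.432-fold (0.225 to 0.823) in the IL-22-positive ones, from 23 and 20 UMIs. With 1 library per group, neither difference between the fractions was tested.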

How the results depend on the processing

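No paired analysis was possible because each group has 1 library. Requiring 0 UMIs of Ly6c2 and Ccr2 left 4 members in the 0 h IL-22-negative library and gave the most moves. Under it the shares were 0.0482%, 0.139%, 8.65% and 1.56%, in the order used above, and the calls (higher and lower) had 50 and 5 at 12 h against 0 h in the IL-22-negative members, 37 and 45 in the IL-22-positive ones, 6 lower between fractions at 0 h and 18 lower at 12 h. There, Hspa1b in the IL-22-negative members was 2.80-fold (0.421 to 119), F13a1 0.630-fold (0.0570 to 4.40) and Ccnb1ip1 0.315-fold (0.00640 to 3.18) in the IL-22-positive ones and Eif3i 1.33-fold (0.197 to 56.8) at 0 h, on the other side of 1 with intervals that span 1, and 11 ratios had no value because the sum of 0 h was 0. Requiring 3 UMIs of Ace, Ear2 and Treml4 gave shares of 0.208%, 15.2% and 4.59% (all but the 0 h IL-22-negative library), 71 higher for time in the IL-22-negative members, 114 higher and 43 lower between fractions at 12 h, and a Ccnb1ip1 ratio of 0.838. Thinning gave shares of 0.0774%, 0.107%, 8.66% and 1.97%. Median-ratio scaling, which shifts the median of 0.26 and 0.24 (log2) in the IL-22-negative time comparison and at 0 h to 0, gave 94 higher and 39 lower in the first and 75 higher and 51 lower in the second. Without each gene's top cell, 15, 48 and 10 genes were lower (time in each fraction and fractions at 0 h), and Ccnb1ip1 was 0.870-fold. Removing Scrublet calls gave 17 lower for time in the IL-22-negative members. CPM without mitochondrial, ribosomal protein and hepatocyte genes gave 88 higher, and the mean of per-cell CPM 69 higher, between fractions at 12 h. In the order of the 4 comparisons, a minimum of 50 UMIs gave 43 higher and 3 lower, 29 lower, 30 higher and 6 lower, and 27 lower. A minimum of 10 UMIs with no CPM minimum gave 356 and 95, 493 and 310, 382 and 84, and 497 and 249. A fold of 1.5 gave 280 and 53, 258 and 235, 240 and 77, and 152 and 210. Without members holding 2 neutrophil or dendritic-cell markers, an alternative added after the data were seen, the share at 0 h in the IL-22-positive library was 15.9%, 56 genes were lower between fractions at 12 h, and Ccnb1ip1 was 0.820-fold. The cause of these moves was not tested. In all, 53 summary values moved and 67 did not. Among the other values, which are the higher and lower counts of the program lists and the ratios of single genes, 2689 stayed and 622 moved. A further 7, all ratios of single genes, lay on the other side of 1. List counts and single genes are not separated in these numbers. Klf2 stayed at 0.50 or lower in the IL-22-negative and 0.462 or lower in the IL-22-positive members under every alternative run. Depth limits the 0 h IL-22-negative library most, where 18 members hold 63873 UMIs and 1 UMI is worth 15.7 CPM.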
